A study of Mus musculus with 6 samples.

Results

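The Bcl2 family sets the threshold for mitochondrial apoptosis, and 9 of its genes and partners were followed here in the embryonic mouse lens: the pro-survival genes Bcl2, Bcl2l1, Bcl2l2 and Mcl1, the pore-forming effector Bak1, the BH3-only genes Bid, Bad and Bcl2l11, and the initiator caspase gene Casp9. They were taken by name from the deposited count table, which lists 13024 genes and holds all 9 of them. RNA was sequenced from 6 pools of E14.5 lenses, each made of 10 lenses from 5 embryos of a mixed C57BL/6 and FVB strain. The 3 Gata3 CKO pools (labelled Gata3 -/-) came from Gata3 f/f embryos carrying Pax6-Cre, which removes a single exon of Gata3. Regulatory sequence of Pax6 directs this Cre to the surface tissue that forms lens and cornea, and a few retinal cells have it too. The 3 control pools, labelled wild type, carried no Cre, and the study's text gives their genotype as Gata3 f/wt in one place and Gata3 f/f in another. Cre and loss of Gata3 therefore differ together between the groups and cannot be told apart.

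In cells that are not dying, Bcl2, Bcl-xL (the product of Bcl2l1), Bcl-w (Bcl2l2) and Mcl1 together keep Bak and Bax from opening the outer mitochondrial membrane. BH3-only proteins report stress: Bim (Bcl2l11) and Bid can engage both the pro-survival proteins and the effectors, and Bad binds Bcl2, Bcl-xL and Bcl-w. Once Bak or Bax opens the membrane, cytochrome c leaves the mitochondrion, Apaf1 assembles into the apoptosome, and caspase-9 activates the caspases downstream of it. Lens fibre cells lose their nuclei and mitochondria as they mature without dying, and this family has long been studied in the lens for that resemblance to apoptosis.

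None of the 9 genes passed the test for a difference between the groups, given the spread between pools. Levels are given as CPM, counts scaled to a common library size by TMM, edgeR's normalization for depth and composition. The pools labelled CKO were compared with control by the quasi-likelihood test of edgeR, and p-values were adjusted after Benjamini and Hochberg over 12879 genes that reached 10 counts in 3 or more libraries. At an adjusted p under 0.05, 0 of the 9 members were called, against 0 of all genes tested (0.0%). At an unadjusted p under 0.05, 0 of the 9 were reached, against 457 of all genes (3.55%). DESeq2's Wald test and limma voom also called 0 of the 9, against 85 (0.66%) and 0 (0.0%) of all genes, with smallest unadjusted p-values among the members of 0.0907 and 0.0727. The fitted log2 fold changes of the members, given throughout as CKO minus control, ran from -0.21 to 0.15. Their median was 0.06, beside 0.00188 over all genes tested, and the median of their sizes without sign was 0.09, beside 0.087 over all genes. Their 95% intervals all lay inside a 1.5-fold change in either direction (0.58 on the log2 scale), as did the intervals of 67.8% of all genes tested. The bound farthest from 0 was the lower one of Bid, at -0.57.

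**Figure D1:**
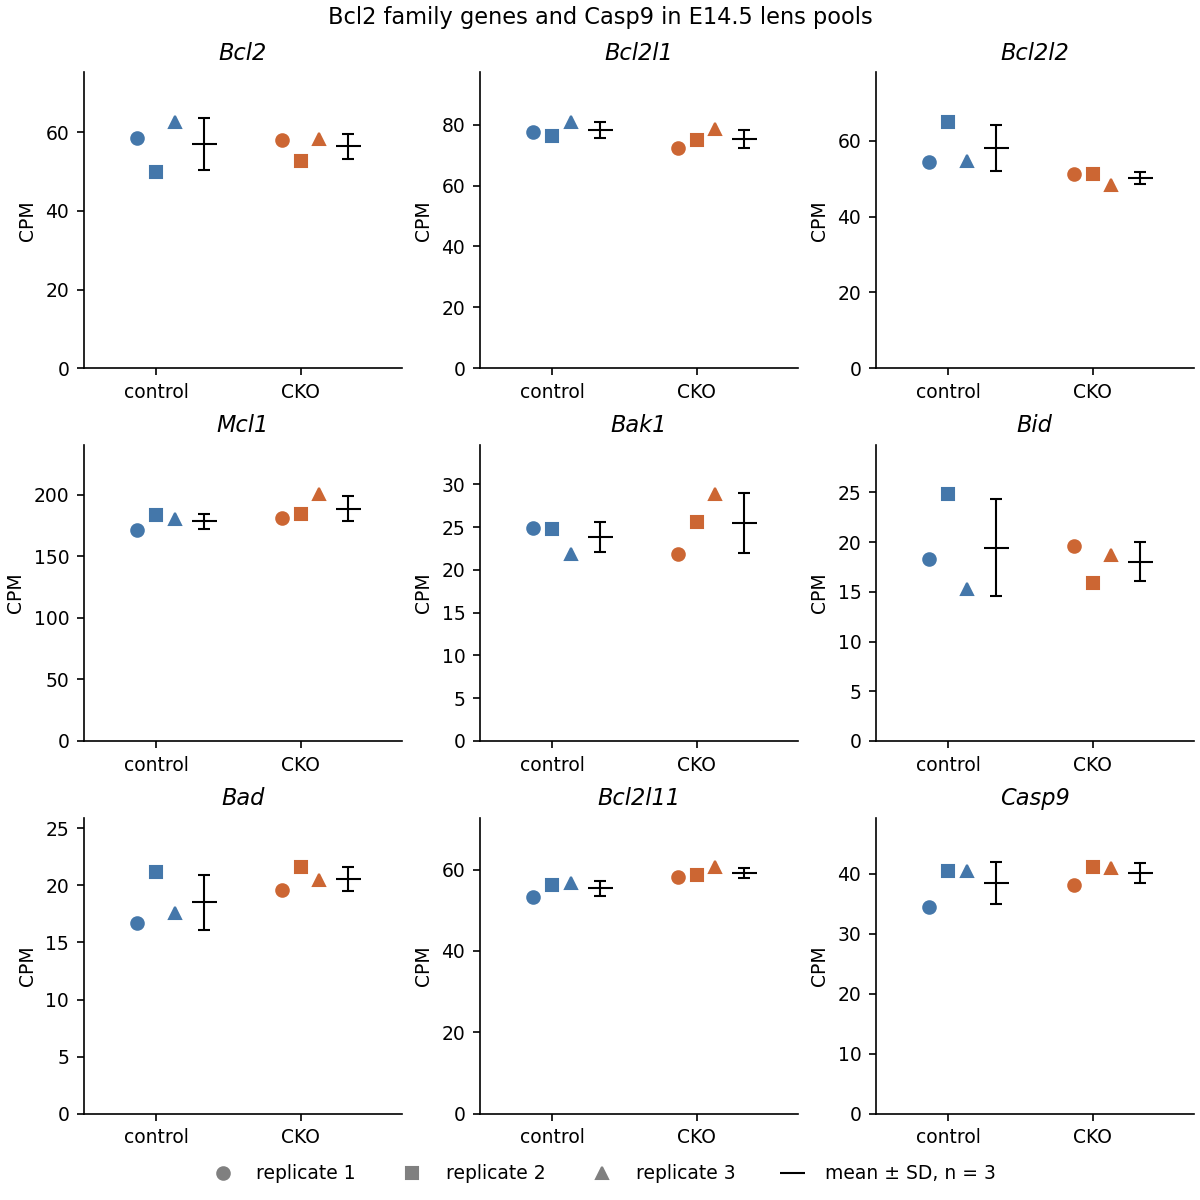
CPM (vertical axes, each starting at 0) of the 9 members in each of the 3 control pools (blue) and the 3 pools labelled CKO (orange), with symbols for the replicate number and black bars for mean ± SD of 3 pools. The groups are apart for Bcl2l2, which is lower in the pools labelled CKO, and for Bcl2l11, which is higher, and they overlap in the other 7 genes.

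The libraries held between 15157230 and 18811104 counts, and the member counts ranged from 264, for Bad, to 3849, for Mcl1. Control replicate 2 stood apart: crystallin genes took 16.5% of its counts, against 5.47% to 9.31% in the other 5 libraries. Its summed level of 17 detected lens fibre markers was 25507 CPM, against 8106 to 12256 CPM elsewhere, and its 14 retina markers were lowest, at 1250 CPM against 1893 to 2882 CPM. The 10 mesenchyme markers were highest in control replicate 1 and CKO replicate 2, at 2238 and 4058 CPM, against 249 to 522 CPM in the other 4 libraries. A list of 8 lens epithelium markers, Foxe3 among them, summed to 1790 to 3276 CPM. Whether each of them marks that tissue alone in these pools was not tested. For Gata3 itself, the control libraries held 202, 386 and 156 counts, fewer than the 910, 1064 and 894 counts of the libraries labelled CKO. A count over the whole gene does not test the deletion of a single exon, so the directions below are those of the labels. In pooled tissue, fewer cells of a type and less RNA per cell cannot be told apart.

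Of the pro-survival genes, Mcl1, whose protein is short-lived and needed by many progenitor cells, was the most abundant member. It had 171, 184 and 180 CPM in control and 181, 184 and 200 CPM in CKO, where values here and below are in the order of replicates 1, 2 and 3. CKO replicate 3 was highest and control replicate 1 lowest, and the groups overlapped in between. The control mean was 178 ± 6.27 CPM (SD, n = 3) and the CKO mean 189 ± 10.3 CPM (SD, n = 3). By edgeR, the log2 fold change was 0.08 (95% interval -0.09 to 0.25), and it was 0.03 without CKO replicate 3.

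Bcl2l1, which encodes Bcl-xL, had the narrowest range over the 6 pools, 0.16 on the log2 scale. Its level was 77.6, 76.1 and 81.0 CPM in the control pools and 72.4, 75.1 and 78.5 CPM in the pools labelled CKO, which overlapped. Its log2 fold change was -0.05 (95% interval -0.22 to 0.11). Bcl2, the founding member of the family, had 58.6, 49.9 and 62.7 CPM in control and 58.1, 52.7 and 58.4 CPM in CKO. Both the highest and the lowest value were control pools, and the log2 fold change was -0.02 (95% interval -0.27 to 0.23).

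Bcl2l2, which encodes Bcl-w, came closest to a difference. Its raw counts of 858, 923 and 980 in control compare with 790, 1006 and 931 in CKO. Normalized, these were 54.4, 65.0 and 54.7 CPM in control and 51.2, 51.2 and 48.4 CPM in CKO. Every pool labelled CKO was below every control pool, with control replicate 2 well above the others. The TMM factor of control replicate 2 was 0.869, against 0.998 to 1.05 in the other libraries, so its CPM was raised most by the scaling. The means were 58.0 ± 6.06 CPM (SD, n = 3) and 50.3 ± 1.59 CPM (SD, n = 3). This was a fitted log2 difference of -0.21 (standard error 0.0955, 95% interval -0.43 to 0.02). Its unadjusted p-value from edgeR was 0.0676 and its adjusted p-value 0.9998, and an exact two-sided permutation test of log2(CPM + 0.5) gave p = 0.1, the smallest that 3 pools against 3 can give. Without control replicate 2 the log2 fold change was -0.11, with an unadjusted p of 0.195. Without normalization factors it was -0.0960, with an unadjusted p of 0.274 from edgeR.

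Bak1, whose product forms pores in the outer mitochondrial membrane, had 24.9, 24.8 and 21.8 CPM in control and 21.8, 25.6 and 28.8 CPM in CKO. CKO replicate 3 was the highest pool, control replicate 3 and CKO replicate 1 were nearly level at the bottom, and the groups overlapped. Its log2 fold change was 0.09 (95% interval -0.21 to 0.40). Without CKO replicate 3, the highest pool, it was -0.00521.

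Bcl2l11, which encodes Bim, varied little within each group. Its level was 53.3, 56.2 and 56.7 CPM in control and 58.2, 58.6 and 60.7 CPM in CKO, so that every pool labelled CKO was above every control pool. The means were 55.4 ± 1.85 CPM (SD, n = 3) and 59.2 ± 1.32 CPM (SD, n = 3). Its log2 fold change was 0.09 (standard error 0.0709, 95% interval -0.07 to 0.26), the unadjusted p-value from edgeR 0.225 and the exact two-sided permutation p = 0.1.

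Bad, which is held inactive by phosphorylation when growth factors are present, had 16.7, 21.2 and 17.6 CPM in control and 19.6, 21.6 and 20.4 CPM in CKO. Control replicate 2 lay among the pools labelled CKO, and the other 2 control pools lay below them. Fitted, this was a log2 fold change of 0.15 (95% interval -0.15 to 0.45). Without control replicate 2 it was 0.27, with an unadjusted p of 0.0469 and an adjusted p-value of 0.782 from edgeR.

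Bid, which links caspase-8 to the mitochondrion, varied most among the members, over 0.70 on the log2 scale. It had 18.2, 24.8 and 15.2 CPM in control and 19.6, 15.9 and 18.7 CPM in CKO. Control replicate 2 was the highest pool and control replicate 3 the lowest, with the pools labelled CKO between them. Its log2 fold change was -0.11 (95% interval -0.57 to 0.36), and it changed sign to 0.12 without control replicate 2. Bid shares 628 of its 3550 exon bases (17.7%) with Bcl2l13, another family gene on the opposite strand, which had 271, 391 and 240 CPM in control and 316, 271 and 278 CPM in CKO. For both genes control replicate 2 was highest and control replicate 3 lowest. The libraries were stranded, but whether the counting used the strand is not given in the sources used here, and the part of shared fragments in the Bid values was not tested.

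Casp9, the caspase that the apoptosome activates, had 34.5, 40.5 and 40.4 CPM in control and 38.1, 41.1 and 41.0 CPM in CKO. Control replicate 1 was the lowest pool, and the other 5 lay within a narrow band. Fitted, this was a log2 fold change of 0.06 (95% interval -0.17 to 0.29), and it was 0.00270 without control replicate 1.

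Counted by pools that do not overlap, 2 of the 9 members stood apart, against 1077 of the 12879 genes tested (8.36%). In 1 of them, Bcl2l2, the pools labelled CKO were lower, as in 4.69% of all genes, and in the other, Bcl2l11, they were higher, as in 3.67%. Without control replicate 2, leaving 2 control pools, 5 of the 9 did not overlap (Mcl1, Bad and Bcl2l11 higher, Bcl2 and Bcl2l2 lower), against 21.8% of all genes under the same rule.

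**Figure D2:**
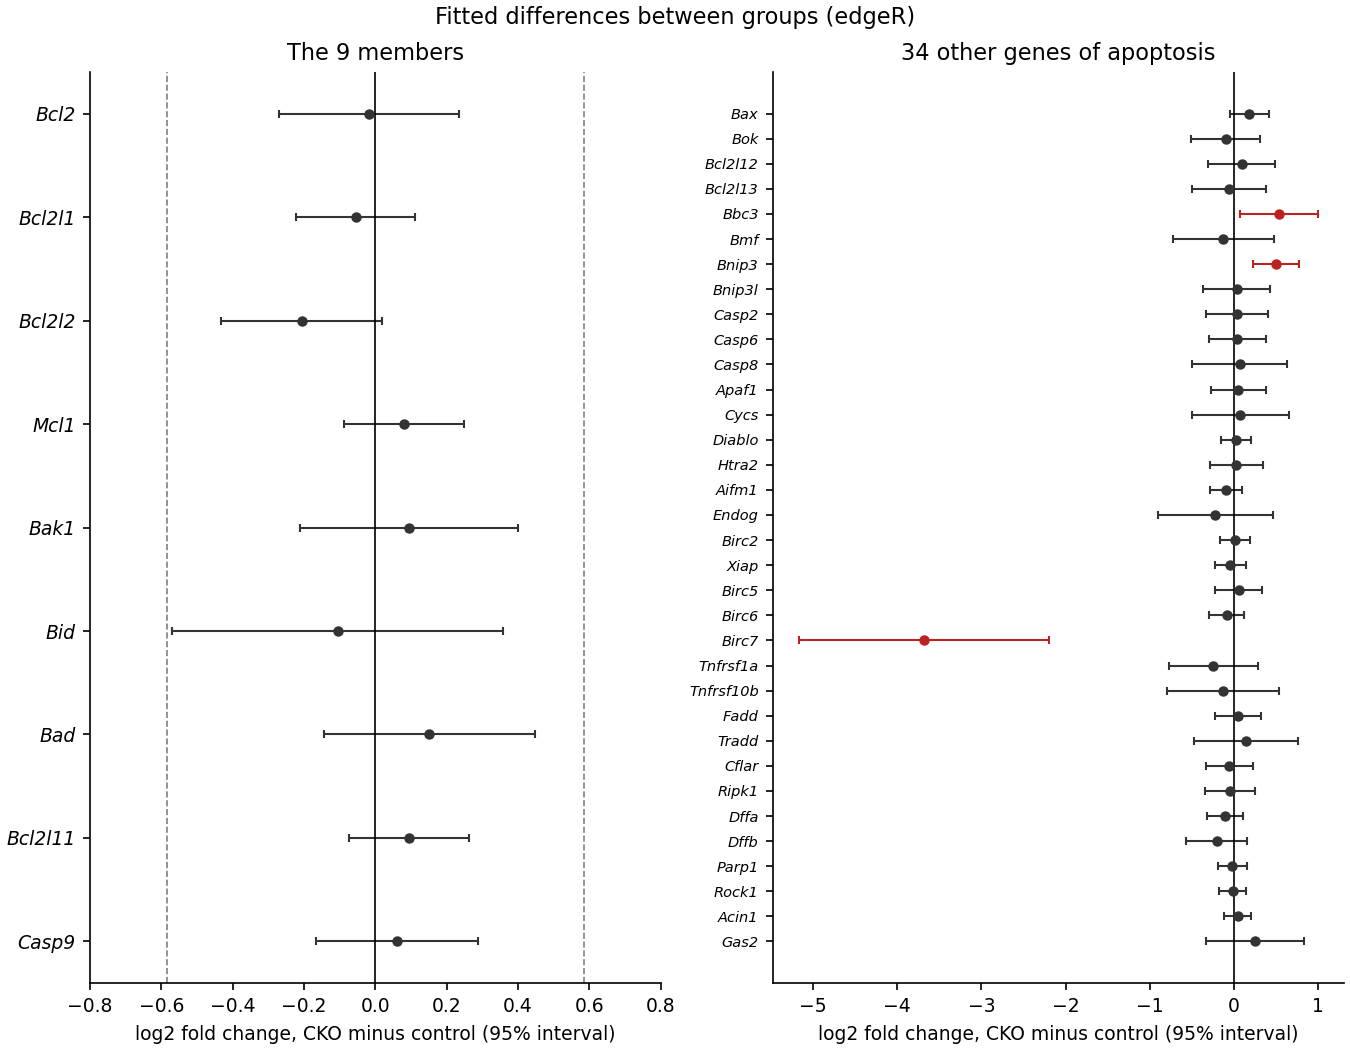
Fitted log2 fold changes (horizontal axes, CKO minus control) with 95% intervals from edgeR, for the 9 members (left) and for 34 other genes of apoptosis (right, on a wider scale). Dashed lines on the left mark a 1.5-fold change, inside which all 9 intervals lie, and red marks the 3 genes on the right with an unadjusted p under 0.05.

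Levels of different genes were compared after dividing CPM by the exon bases of each gene in kilobases. On this scale Mcl1 led in all 6 pools, at a mean of 53.7 CPM per kilobase and a range of 50.1 to 58.6. Bcl2l1 followed at 16.7 (15.8 to 17.7), with no pool in common with the ranges of Mcl1 above or Bcl2l2 below it. Bcl2l2, at 12.1 (10.9 to 14.6), and Bak1, at 10.2 (9.07 to 11.98), overlapped. Bad (7.63), Casp9 (7.56) and Bcl2l11 (7.13) lay below Bak1 in every pool and could not be ordered, since their ranges overlapped. Bcl2 (6.20, range 5.45 to 6.85) and Bid (5.28, range 4.30 to 6.99) had the lowest means, with ranges that overlapped each other and those of Bad, Casp9 and Bcl2l11. When the longest annotated transcript was used for the length of a gene, the order of Mcl1, Bcl2l1 and Bcl2l2 at the top and of Bcl2 and Bid at the bottom was kept, but Bad and Bcl2l11 came before Bak1.

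Mcl1 made up 41.1% to 43.9% of the summed level per kilobase of the 9 genes in the 6 pools. Bcl2l2 made up 9.85% to 11.2% in the control pools and 8.13% to 9.30% in the pools labelled CKO. The 4 pro-survival genes together exceeded the sum of Bak1, Bid, Bad and Bcl2l11 in every pool. The ratio of these sums took values of 2.99, 2.77 and 3.27 among control pools, against 2.93, 2.83 and 2.83 among those labelled CKO. The groups overlapped, with means of 3.01 ± 0.251 (SD, n = 3) and 2.87 ± 0.0578 (SD, n = 3), and no test was made of this sum over chosen genes. With the longest transcript as length, the ratio ran from 2.35 to 2.81 over the pools. Bax, the other effector, and further BH3-only genes such as Bbc3 are not members, so the ratio is not that of the whole family.

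**Figure D3:**
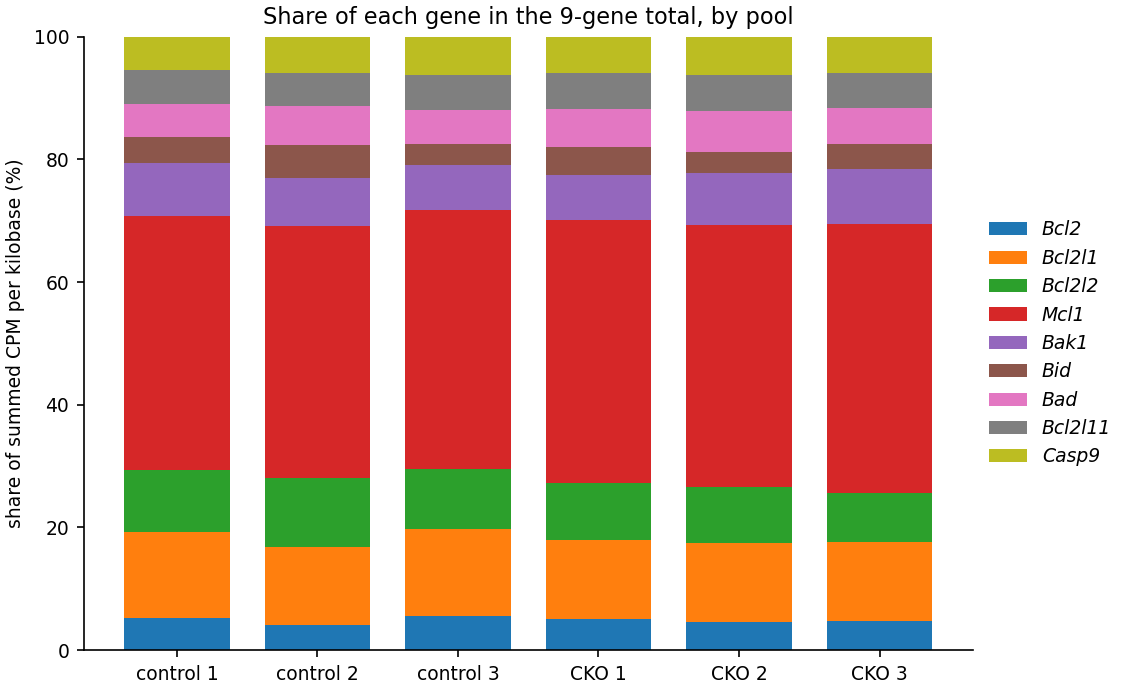
Share (vertical axis, percent) of each member in the summed CPM per kilobase of the 9 genes, one bar for each pool. In all 6 pools Mcl1 takes the largest share, between 41.1% and 43.9% of the total.

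The wider pathway was described through 56 other genes in 6 lists, of which 34 were tested. By edgeR 0 of the 34 had an adjusted p under 0.05, DESeq2's Wald test called 1, Birc7, beside 0.66% of all genes, and limma voom called 0, beside 0.0%. At an unadjusted p under 0.05, 2 were higher and 1 lower in the pools labelled CKO, beside 1.3% of all genes higher and 2.24% lower. The same 3 genes, Bnip3, Bbc3 and Birc7, were reached by DESeq2 and limma voom. The median log2 fold change of the 34 was 0.02.

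Among 8 other Bcl2 family genes tested, Bnip3, which encodes a mitochondrial BH3-like protein best known for mitophagy and hypoxia, had 29.9, 32.0 and 32.2 CPM in control and 43.3, 38.8 and 50.8 CPM in CKO. The groups did not overlap, and the control pools lay close together. The log2 fold change was 0.50 (95% interval 0.22 to 0.77), with an unadjusted p-value of 0.00376 and an adjusted p-value of 0.638 from edgeR. Leaving out any single library gave 0.39 to 0.58.

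Bbc3, which encodes Puma, a BH3-only protein and a target of p53, had 8.05, 9.23 and 12.8 CPM in control and 14.9, 14.0 and 14.7 CPM in CKO. The groups did not overlap, although control replicate 3 came close to the pools labelled CKO. The log2 fold change was 0.53 (95% interval 0.07 to 0.99, unadjusted p 0.0290). It did not reach an unadjusted p under 0.05 without control replicate 1 (0.0755) or without CKO replicate 1, 2 or 3 (0.0755, 0.0538 and 0.0733), where the log2 fold change was 0.41, 0.52, 0.56 and 0.53 in that order. Bax, the partner of Bak1 as an effector, had 42.8, 49.8 and 47.7 CPM in control and 49.3, 52.6 and 57.4 CPM in CKO, a log2 fold change of 0.18 (95% interval -0.05 to 0.41), with overlapping groups. The other 5 had log2 fold changes of -0.13 to 0.09. Bcl2a1b had too few counts, and 9 further genes of this list were not analysed here.

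Of the other caspase genes tested, Casp8, the initiator caspase of death receptor signalling, had a log2 fold change of 0.07 (95% interval -0.49 to 0.63). Casp2 was at 0.04 (95% interval -0.33 to 0.40) and Casp6 at 0.04 (95% interval -0.30 to 0.38). The groups overlapped for all 3 genes.

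Birc7, which encodes livin, an inhibitor of apoptosis protein, had raw counts of 105, 225 and 73 in control against 13, 8 and 16 in CKO. It had 6.65, 15.9 and 4.08 CPM in control and 0.843, 0.407 and 0.833 CPM in CKO. The groups were well apart, and control replicate 2 was the highest pool. The log2 fold change was -3.68 (95% interval -5.16 to -2.20), with an adjusted p-value of 0.473 from edgeR and 6.31e-07 from DESeq2's Wald test. Leaving out any single library gave log2 fold changes of -4.03 to -2.95, the smallest in size without control replicate 2. Birc7 is also in the list of lens fibre markers, as are other genes that the study had already reported as lower in these libraries. All 17 detected markers were lower in the pools labelled CKO, 10 of them at an unadjusted p under 0.05, beside 2.24% of all genes. This count includes Birc7 and those reported genes, so it is in part a repeat of what was known of these data. Apart from control replicate 2, the summed fibre marker levels of the groups overlapped, at 12256 and 8750 CPM in control and 11990, 9297 and 8106 CPM in CKO. The other inhibitors tested, Birc2, Xiap, Birc5 and Birc6, had log2 fold changes of -0.09 to 0.05.

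**Figure D4:**
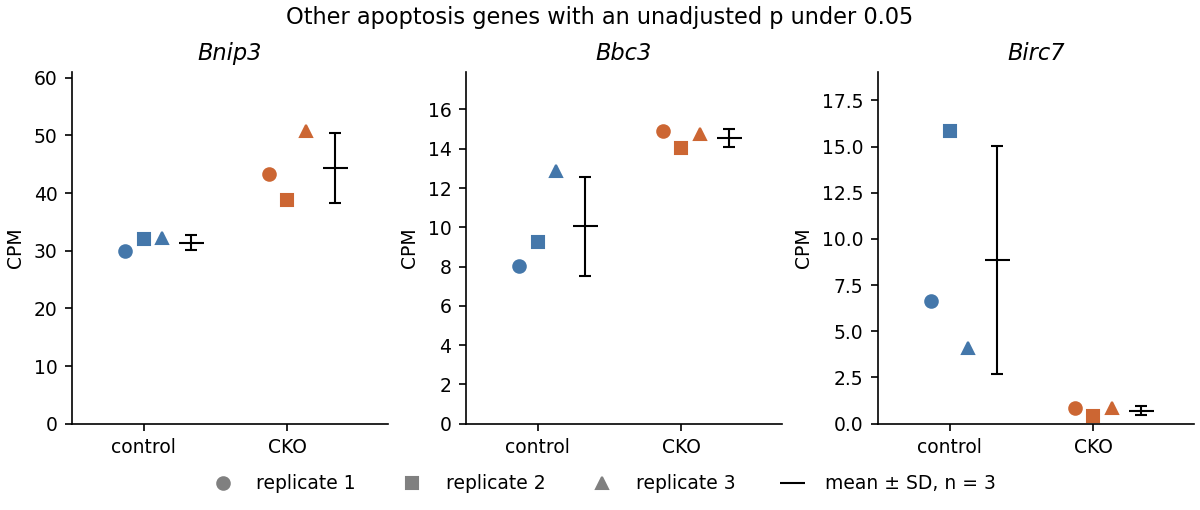
CPM (vertical axes, each starting at 0) of the 3 genes of the wider pathway with an unadjusted p under 0.05, in the 3 control pools (blue) and the 3 pools labelled CKO (orange), with mean ± SD of 3 pools. Bnip3 and Bbc3 are higher and Birc7 is lower in the pools labelled CKO, and control replicate 2 (square) is the highest pool for Birc7.

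The steps between the mitochondrion and the caspases had smaller fitted log2 fold changes, but some of their intervals were wide. Apaf1, which forms the apoptosome, had a log2 fold change of 0.05 (95% interval -0.27 to 0.37). All 6 genes of the apoptosome and of proteins released from mitochondria lay between -0.22, for Endog, and 0.08, for the cytochrome c gene Cycs. Both had few counts, 34 to 63 for Endog and 41 to 77 for Cycs. Their 95% intervals were -0.90 to 0.46 and -0.50 to 0.66. In the death receptor list 6 genes were tested. Their log2 fold changes ran from -0.24, for Tnfrsf1a (95% interval -0.78 to 0.29), to 0.14, for Tradd (95% interval -0.48 to 0.76). The 6 genes of caspase targets and nucleases ran from -0.21, for Dffb, which encodes the caspase-activated DNase, to 0.25, for Gas2. Their 95% intervals were -0.57 to 0.16 and -0.33 to 0.83. In these lists, in the order given, 4, 3 and 5 of 6 intervals lay inside a 1.5-fold change, beside 67.8% of all genes tested. None of the genes in these 3 lists had an unadjusted p under 0.05 by edgeR's quasi-likelihood test, DESeq2's Wald test or limma voom. Over all genes tested the shares were 3.55%, 3.94% and 3.42%, so in lists this short a count of 0 is near the background.

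Several genes stood out in control replicate 2, the pool with the largest share of crystallin RNA. Relative to the mean of the other 5 pools, it was higher by 0.51 on the log2 scale for Bid and by 0.32 for Bcl2l2, and lower by 0.22 for Bcl2. Mcl1 and Bak1 differed there by at most 0.02. Among the other genes it was higher by 3.32 for Birc7, 0.64 for Tnfrsf10b, 0.51 for Bcl2l13 and 0.42 for Bnip3l. It was the lowest pool, by 0.46 for Casp2, 0.45 for Bcl2l12, 0.43 for Gas2 and 0.36 for Apaf1. For Bbc3 it was lower by 0.45, but control replicate 1 was lower still, at 8.05 against 9.23 CPM. The other 5 pools include all those labelled CKO, so for Bbc3 and Birc7 the difference between the groups enters these values. These are single-pool values, beside the fibre and retina marker sums given above. This pool was also highest for the summed lens epithelium markers, at 3276 against 1790 to 2307 CPM, and macrophage markers, at 164 against 80.4 to 125 CPM. It was highest for blood markers too, at 1267 against 279 to 531 CPM, with 3 of 6 of them at 0 in all pools. The part of tissue composition in the gene values was not tested.

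**Figure D5:**
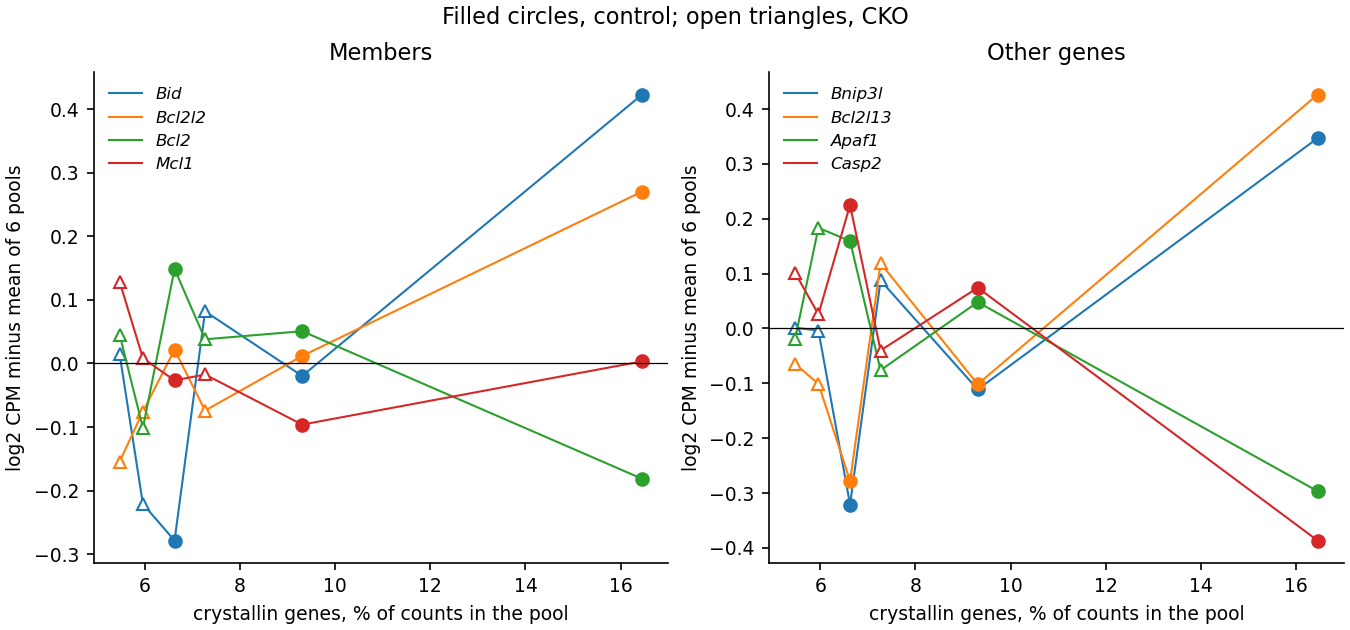
Log2 CPM minus the mean of the 6 pools (vertical axes) against the share of counts on crystallin genes in each pool (horizontal axes, percent; filled circles for control, open triangles for CKO), for 4 members (left) and 4 other genes of apoptosis (right, on its own scale). Lines join the pools in order of that share, and the control pool at 16.5% is highest for Bid, Bcl2l2, Bcl2l13 and Bnip3l and lowest for Bcl2, Casp2 and Apaf1.

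The genes with profiles most like Bid and Bcl2l2, the 2 members with the widest range of log2 CPM (0.70 and 0.42), were found by the Euclidean distance of centred log2 CPM over the 6 pools, among 11361 genes. For Bid they were Pnpla2 (distance 0.0729), Cox10 (0.132) and Eef2kmt (0.140). For Bcl2l2 they were Gak (0.0418), Nub1 (0.0588) and Atp2c1 (0.0597). For all 6 of these genes, control replicate 2 was the highest pool. This follows from how they were chosen, since Bid and Bcl2l2 were themselves highest in that pool.

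Because Gata3 binds sites with a GATA core, the promoters of the members were read for the words AGATAA or AGATAG and also TGATAA or TGATAG on both strands, in windows from 250 bases before to 50 bases after each start site in RefSeq for GRCm38.p6. All 9 members had a window, 13 in all, and 3 windows held a word, 1 each of Bcl2l1, Bid and Casp9. Over all 32851 windows of the table, 29.8% held one. The stretches are shown because they are the places in these windows with the letters of the deleted factor's motif, which is in capitals. They read 5′ to 3′ on the strand of the gene, from chr2:152828513-152828542 and chr2:152828440-152828466 (both reverse strand) for Bcl2l1, chr6:120916849-120916878 (reverse strand) for Bid and chr4:141793457-141793486 (forward strand) for Casp9. The first Bcl2l1 word begins 41 bases before and the second 36 bases into the transcript, the Bid word 42 bases before and the Casp9 word 143 bases before the start site.
Bcl2l1, first word: attgtgacccaaAGATAAagagagcagagg
Bcl2l1, second word: tcagtcagggtgAGATAGaggtgagag
Bid: cggagggcggggCTATCAcaggggcggggc
Casp9: aggggagaagcgTTATCAtgtgaggcaggt
The log2 fold changes of these 3 genes were -0.05, -0.11 and 0.06. By edgeR 0 of all 12879 genes tested had an adjusted p under 0.05 between the groups, so these 3 do not differ from the rest in that. Bcl2l2 and Bcl2l11, whose groups did not overlap, held none of these words in their windows. Sites farther from the start sites were not read, and whether Gata3 acts on any of these genes was not tested.

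The members lie on 8 chromosomes of GRCm38, the assembly of mm10. Bcl2 lies on chromosome 1 (106538178–106714274), Bcl2l11 (128126038–128162547) and Bcl2l1 (152780668–152831728) on chromosome 2, Mcl1 on chromosome 3 (95658788–95663176) and Casp9 on chromosome 4 (141793612–141815976). Bid lies on chromosome 6 (120891930–120916853), Bcl2l2 on chromosome 14 (54883377–54888234), Bak1 on chromosome 17 (27019810–27029009) and Bad on chromosome 19 (6941861–6951899). Other members also share exon bases with genes on the opposite strand. Beside Bid, Bad shares 524 of 2558 exon bases (20.5%) with Gpr137, and Bak1 shares up to 18.2% with Ggnbp1. Bcl2l2 shares 594 bases with the gene model Gm20521 on its own strand. Gm20521 is not among the genes counted. These overlaps are those of GENCODE M21, whereas counting was per RefSeq gene. The values of these genes are uncertain to the extent that fragments from shared bases were left out or given to the wrong gene.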

How the data were processed

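Fragments of polyA-selected, strand-specific libraries were aligned by the authors to mm10 with TopHat2 2.0.13 and counted per RefSeq gene with HTSeq 0.6.1. The authors deposited these raw counts, without normalization, for 13024 genes. Their methods give an FPKM minimum for detected genes, but 42 genes of the table had 0 counts in all 6 libraries. The strand and overlap options of the counting are not given in the sources used here. Samples were grouped by their titles. The descriptions number the CKO libraries differently, and the title numbers are used.

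Genes that reached 10 counts in 3 or more libraries entered the analysis. TMM scaling and the robust quasi-likelihood test came from edgeR 4.0.16 in R 4.3.3, and p-values were adjusted over all tested genes. Intervals are 95%. DESeq2 1.42.0, limma 3.58.1 (voom), other normalizations and filters, a replicate block, marker covariates and each library left out in turn were alternatives. Exon lengths came from GENCODE M21, promoters from RefSeq. Python 3.11.15 with pandas 2.3.3 and SciPy 1.17.1 made the tables, and matplotlib 3.10.9 the plots.

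The members, lists and tests were chosen with earlier results of these data known. Some genes of the pathway lists are not reported here and are left out of the list counts. Named genes are the members, up to 5 genes of smallest unadjusted p in each pathway list, the 3 nearest profiles of the 2 members with the widest range over the pools, and Gata3; other list genes named for their role or place in control replicate 2 were chosen after their values were seen.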

Additional observations from a re-analysis of the deposited data

How the results depend on the processing

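The 9 member log2 fold changes were recomputed under 15 alternatives. Of these 135 values, 126 kept their sign and stayed short of an adjusted p under 0.05, and 9 changed sign, in 4 members. Without normalization factors, where the median of all genes moved to 0.10 on the log2 scale, Bcl2 was 0.0757, Bcl2l1 0.0465 and Bid 0.0163. Bcl2l2 kept its sign there, at -0.0960. With retina and mesenchyme covariates Bid was 0.0561. With each library left out in turn, Bcl2 ran from -0.0943 to 0.0555, Bcl2l1 from -0.0853 (without CKO replicate 3) to -0.0275 (without CKO replicate 1), Mcl1 from 0.0348 to 0.113, Bak1 from -0.00521 to 0.192 and Bid from -0.255 to 0.117. The number of members with an unadjusted p under 0.05 was 0 to 1 with a library left out (Bad, without control replicate 2, where 6.27% of all genes had one), and the number not overlapping was 5 in place of 2 without control replicate 2, an alternative chosen after seeing the data. Over all genes, 85 were called by DESeq2's Wald test, 1 without normalization factors, 462 with the covariates, and 0 to 1 with a library left out, where without control replicate 3 it was 1. The number of other apoptosis genes with an unadjusted p under 0.05 was 6 with the covariates, where 11.4% of all genes had one and Bnip3 and Birc7 were called. It was 2 to 5 with a library left out, beside 2.11% to 9.59% of all genes, and highest without control replicate 2, where 6.27% of all genes had one. Deviations from group means correlated at -0.487, 0.0899 and 0.442 for pools with the same title number 1, 2 and 3. Not every pool correlated best with its own number. These correlations cannot tell whether pools shared a litter or a batch, which was not tested. With the replicate block, 516 genes in place of 457 had an unadjusted p under 0.05, Bcl2l2 had a log2 fold change of -0.20 and an unadjusted p of 0.0831, and no member or pathway gene was called. With the longest transcript as length, chosen after seeing the data, levels per kilobase were 7.89 for Bcl2, 29.9 for Bcl2l1, 14.2 for Bcl2l2, 7.76 for Bid, 12.7 for Bad, 11.4 for Bcl2l11 and 10.1 for Casp9. The causes of these shifts were not tested.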
